A study of Mus musculus with 2 samples.

Results

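The nuclear genes for the subunits of the oxidative phosphorylation complexes were followed across the cell classes of the mouse trigeminal ganglion (TG), the ganglion that holds the sensory neurons of the face, 7 days after saline or complete Freund's adjuvant (CFA). The members were every gene symbol that begins with Nduf and a letter a, b, c, s or v plus a number, with Uqcr, with Cox4 to Cox8 or with Atp5, together with Sdha, Sdhb, Sdhc and Sdhd. Symbols containing -ps were left out. This gave 87 of 39098 symbols, 87 in the control file and 86 in the CFA file, in which Cox8c was not listed. By complex, 38 belonged to complex I, 4 to complex II, 8 to complex III, 20 to complex IV (Ndufa4 and Ndufa4l2 included) and 17 to complex V.

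Oxidative phosphorylation is the route by which mitochondria turn the electrons of NADH and succinate into ATP. Complexes I and II take up the electrons, complex III passes them to cytochrome c, complex IV hands them to oxygen, and complex V uses the proton gradient to make ATP. Most subunits are encoded in the nucleus and imported, while 13 are encoded by the mitochondrial genome, so both genomes must supply parts of complexes I, III, IV and V. Complex II is entirely nuclear. Firing neurons spend much of their ATP on ion pumping, and several complex IV subunits have a second isoform with a restricted tissue pattern.

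Both groups were male C57BL/6 mice aged 5 to 8 weeks. The control group is labelled untreated, and by the study's methods it received saline in the right vibrissal pad, whereas the CFA group received 20 μL of CFA there. The right TG was dissociated on day 7 in both groups and captured by BD Rhapsody, a microwell method that tags each RNA molecule with a unique molecular identifier (UMI). Each group is 1 library, and how many ganglia were pooled in each is not given in the sources used here.

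The control library held 7298 cells with 48916096 UMIs and the CFA library 4080 cells with 22096268 UMIs. Cells with at least 150 genes and at most 25% mitochondrial UMIs were kept, which left 6695 and 3661 cells. The 2 libraries share 27 cell labels, 22 of which passed in both. Neurons were the kept cells with at least 100 UMIs summed over 8 pan-neuronal markers (758 control, 392 CFA, median 46462 and 37617 UMIs). Raw UMIs of subtype markers gave 9 neuron classes. Neurons that passed no subtype gate, or 2, are in no class. They still count in all neurons and in the other neurons that a class is compared with. Cells with fewer than 20 such UMIs were gated into 11 non-neuronal classes, whose median depth was far lower, for example 2069 and 1949 UMIs in satellite glial cells. Levels are CPM, the UMIs of a gene scaled to a common total per class, with exact Poisson intervals that cover counting error only. UMIs count molecules, so no length scaling was used.

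The members lie on 19 chromosomes, and 85 of the 87 symbols were found in the GENCODE M21 annotation of GRCm38, 82 of them as protein-coding genes. The 3 genes that the study singled out on these same samples are Atp5d (complex V δ subunit, chromosome 10, 80138632 to 80145818, plus strand), Cox5a (complex IV, chromosome 9, 57521274 to 57532426, plus strand) and Atp5g3 (complex V c subunit, chromosome 2, 73908447 to 73911326, minus strand). Because the study chose them here, they are no independent evidence of a direction. In all, 39 members overlap another annotated gene. Reads of near-identical copies (Ndufb4c, Ndufs6b, Ndufa11b and Cox6c2) may have been split between them and the genes they resemble. The c-subunit genes Atp5g1, Atp5g2 and Atp5g3 encode the same mature protein, and how reads were assigned among them is not given in the sources used here.

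NRF1 and GABPA are nuclear factors known to bind promoters of respiratory chain genes. The 10-base NRF1 string shown in capitals in the stretches printed here, which reads the same on both strands, and the GABPA letters CCGGAAG were searched on both strands in the 250 bases before each start in the RefSeq promoter table (GRCm38.p6), where 67 members had an entry. The NRF1 letters were found for 4 of 67 members (5.97%) and for 0.877% of the 27025 genes with an entry. The GABPA letters were found for 12 of 67 members (17.9%) against 7.83% of all. A match is a string of letters and not a shown binding site. The stretches of 100 bases around the NRF1 letters of Cox6a1 and Ndufa11 are printed because both hold the full string and lie outside the GENCODE gene. Those of Atp5g2 and Atp5k reach into it and are only named. Capitals mark the letters searched, and each stretch runs 5′ to 3′ along the gene.
Cox6a1 (chr5:115349066-115349165, minus strand): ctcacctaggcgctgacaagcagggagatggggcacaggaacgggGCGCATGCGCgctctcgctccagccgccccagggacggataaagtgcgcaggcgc
Ndufa11 (chr17:56717657-56717756, plus strand): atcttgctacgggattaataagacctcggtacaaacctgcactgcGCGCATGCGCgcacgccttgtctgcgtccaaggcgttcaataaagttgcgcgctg

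In all gated neurons, the 87 genes together made up 25040.3 CPM of control (95% interval 24990.2 to 25090.5) and 23946 CPM of CFA (23872 to 24021). Complex IV took the largest share, 30.8% of member UMIs in control and 30.7% in CFA, followed by complex V (28.6% and 28.2%) and complex I (27.3% and 27.9%). Complex III held 9.86% and 9.84%, and complex II held 3.41% and 3.49%. Single members ranged widely. The median member stood at 237 and 223 CPM, and the 10 highest carried 35.2% and 34.8% of the member UMIs. Over all kept cells, Cox6a1, the ubiquitous form of complex IV subunit VIa, had the most UMIs (77952 in both libraries together). It was followed by Atp5g3, one of the genes for the c subunit of the rotor ring of complex V (62143), Atp5a1, its α subunit (59345), and Ndufa4 (58687) and Cox6c (50831) of complex IV. Atp5b, the catalytic β subunit, had 48773. The leading members of the other complexes were Ndufb6 (21802), Ndufv3 (21520) and Ndufa2 (18976) for complex I, Sdhb (18200), Sdhd (14003) and Sdha (12865) for complex II, and Uqcrh (36108), Uqcrq (29783) and Uqcrb (18929) for complex III. At the other end, Cox8c had 2 UMIs in the control library and is not listed in the CFA file, and Cox6a2 had 17 and 3. No member was at 0 UMIs in both libraries.

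**Figure D1:**
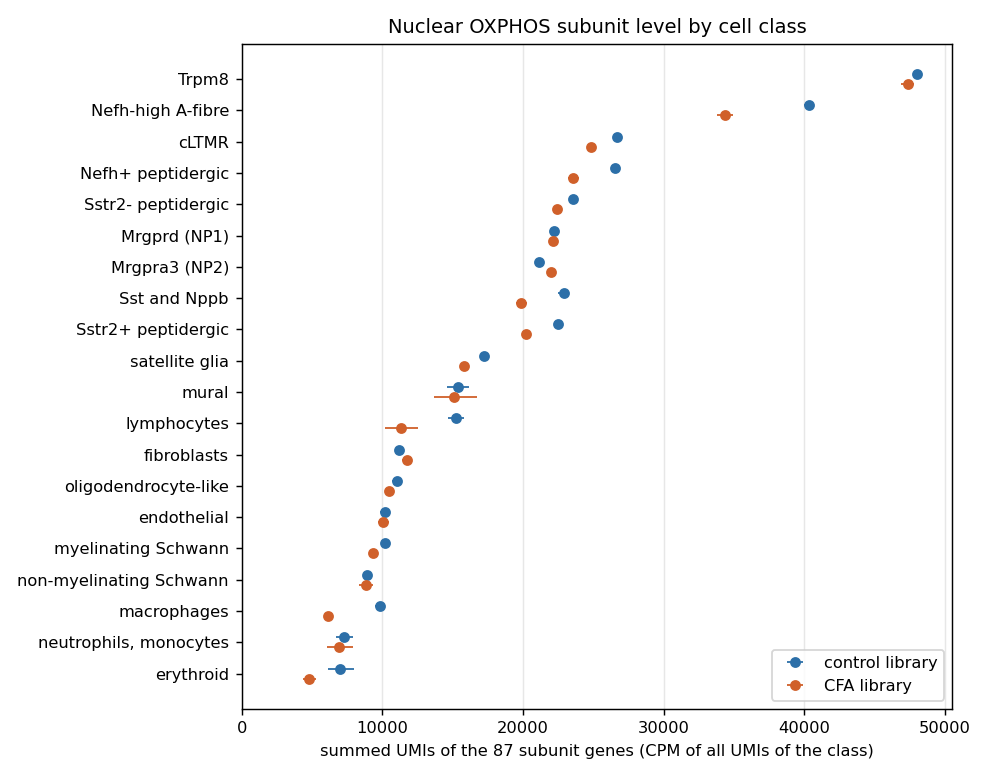
Summed level of the 87 genes (x axis, CPM of all UMIs of the class, from 0) in 20 gated classes for the control (blue) and CFA (orange) library, with exact 95% Poisson intervals as bars. Trpm8 neurons stand at 48024 and 47343 CPM, Nefh-high A-fibre neurons at 40339.9 and 34368 CPM, and the next class, cLTMR, at 26712 and 24807 CPM.

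The classes were spread over a wide range. Trpm8 neurons, gated by the cold and menthol channel gene Trpm8, had the highest summed level at 48024 CPM (control) and 47343 CPM (CFA). Nefh-high A-fibre neurons, gated by the heavy neurofilament of myelinated fibres with little Calca, followed at 40339.9 and 34368 CPM. Both classes lay above every other class in both libraries. The C-fibre low-threshold mechanoreceptors (cLTMR) had 26712 and 24807 CPM, and the Nefh-positive peptidergic neurons 26554 and 23557 CPM. The remaining 5 neuron classes lay between 19870.3 and 23539.8 CPM, and their order was not the same in the 2 libraries: Sst and Nppb neurons went from 22886 to 19870.3 CPM while Mrgpra3 neurons (NP2) went from 21165 to 22010.4 CPM. Neighbours among these 5 could therefore not be ordered beyond the gap between libraries.

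Non-neuronal classes were lower. Satellite glial cells, which wrap the neuronal cell bodies, had 17229.8 and 15807 CPM, and mural cells of small vessels had 15365 and 15125 CPM. Lymphocytes had 15232 and 11308 CPM from only 83 and 24 cells. Fibroblasts, oligodendrocyte-like cells, endothelial cells and both kinds of Schwann cell lay between 8832 and 11729 CPM. Macrophages (9809 and 6135 CPM), neutrophils and monocytes (7306 and 6950 CPM) and erythroid cells (7019 and 4809 CPM) closed the list. In bulk sums of this kind, a shift in the mix of cells within a class and a shift per cell cannot be told apart.

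Class differences were tested with edgeR's quasi-likelihood test on UMIs summed per class and library, with the library as a term. In 11 of the 17 contrasts, those of Trpm8 and Nefh-high neurons included, the fit set each gene's spread to the trend shared by all genes, so a gene could be called although its difference varied between the libraries. In Trpm8 neurons against all other neurons, 79 of 82 members tested were higher at an adjusted p under 0.05 and 0 were lower (80 at an unadjusted p under 0.05 in either direction, and 0 lower with DESeq2), while 18.7% of all 14439 genes tested were called higher and 21.1% lower. The median log2 difference was 1.10 for the members and -0.03 for all genes. The summed level was 2.02 times that of the other neurons in control and 2.09 times in CFA. Every complex took part. Higher were 35 of 38 members of complex I (median log2 difference 1.03), 4 of 4 of complex II (1.15), 8 of 8 of complex III (1.28), 15 of 15 tested of complex IV (1.04) and 17 of 17 of complex V (1.20). The 3 members that did not pass were Ndufa11b, Ndufs6b and Ndufb4c, near-identical copies of other subunits with at most 21.6 CPM in the class.

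The size of the difference varied between members. Cox7a1, the heart and muscle form of complex IV subunit VIIa, showed the largest log2 difference (2.56, SE 0.46, adjusted p 1.51e-07), from 8.65 and 12.9 CPM in Trpm8 neurons and 1.604 and 2.03 CPM in the other neurons. It rested on 18 and 11 UMIs. Cox4i2, the lung form of subunit IV, was next (2.14, SE 0.68, adjusted p 0.00522) on 5 UMIs in each library. Among abundant members the largest belonged to Atp5g1, which encodes the c subunit, with 714 and 635 CPM against 243 and 225 CPM (log2 difference 1.57, SE 0.08, adjusted p 2.42e-76). Ndufa12 and Cox5a followed with 1.55 (SE 0.11) and 1.43 (SE 0.08). The smallest differences were those of Ndufa7 (0.28, SE 0.09), Atp5g2 (0.40, SE 0.14) and Ndufs6 (0.48, SE 0.09), and Ndufa7 stood at 303 and 269.9 CPM against 250.3 and 235.5 CPM. The 3 c-subunit genes encode the same mature protein, yet their log2 differences were 1.57, 0.40 and 1.22 for Atp5g1, Atp5g2 and Atp5g3.

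The study named Cox5a, Atp5g3 and Atp5d as hubs of a protein interaction network. That network was built from genes that differed between CFA and control in its Nefh-positive neurons. The study reports Trpm8 as specific to those neurons, so its group matches neither the Trpm8 nor the Nefh-high class gated here. The class difference given here is another comparison, in which all 3 were higher in Trpm8 neurons. Cox5a had 985 CPM in the control and 778 CPM in the CFA library, against 358 and 316 CPM in the other neurons. Atp5g3 had 2310 and 1911 CPM against 995 and 875 CPM, a log2 difference of 1.22 (SE 0.08, adjusted p 2.91e-50). Atp5d had 626 and 500 CPM against 337 and 299 CPM, a log2 difference of 0.87 (SE 0.08, adjusted p 6.89e-24). For each of the 3 genes, both Trpm8 values lay above both values of the other neurons.

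**Figure D2:**
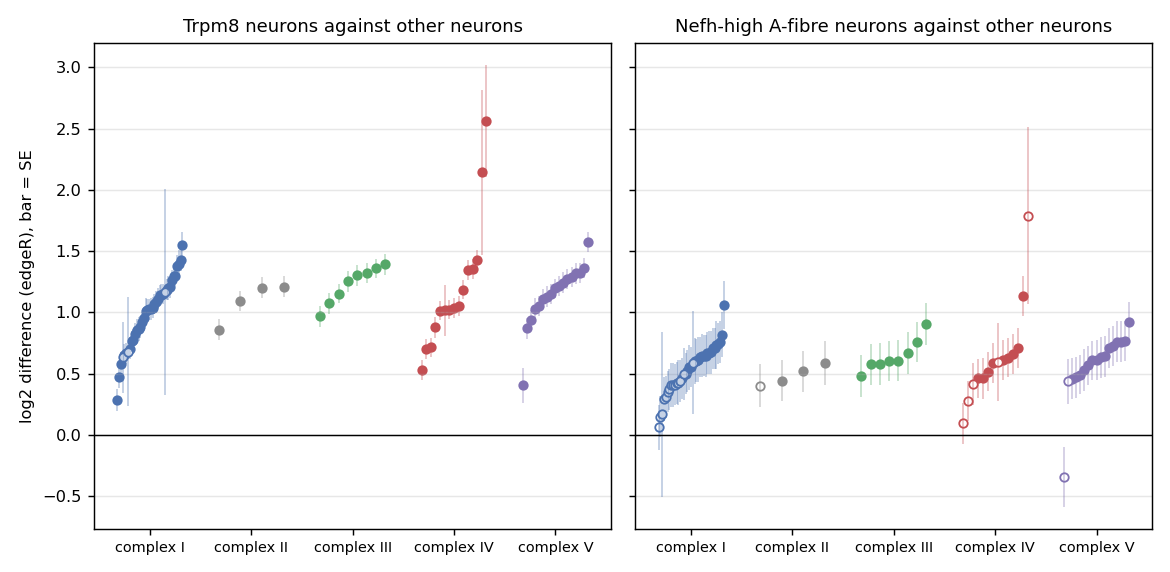
Log2 difference (y axis) of every member tested in Trpm8 neurons (left) and Nefh-high A-fibre neurons (right) against the other neurons, grouped by complex and sorted within it, with the SE as bars and filled points for an adjusted p under 0.05 in edgeR. In Trpm8 neurons 79 of 82 points are filled and all lie above 0, and in Nefh-high neurons 57 of 80 are filled.

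The difference was visible cell by cell. The members took a median of 4.81% of the UMIs of a Trpm8 neuron in the control library (38 cells, 2.41% to 6.86%) and 4.58% in the CFA library (19 cells, 1.99% to 6.89%). In the neurons outside the Trpm8 and Nefh-high classes, the median was 2.29% (695 cells) and 2.17% (361 cells). Of the Trpm8 neurons, 32 of 38 and 18 of 19 exceeded the 95th percentile of those cells, which was 3.16% and 3.09%. Cells of a library are not replicates, so these counts describe the 2 libraries. The depth per cell was similar, with median UMIs of 51104 and 42571 in Trpm8 neurons.

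**Figure D3:**
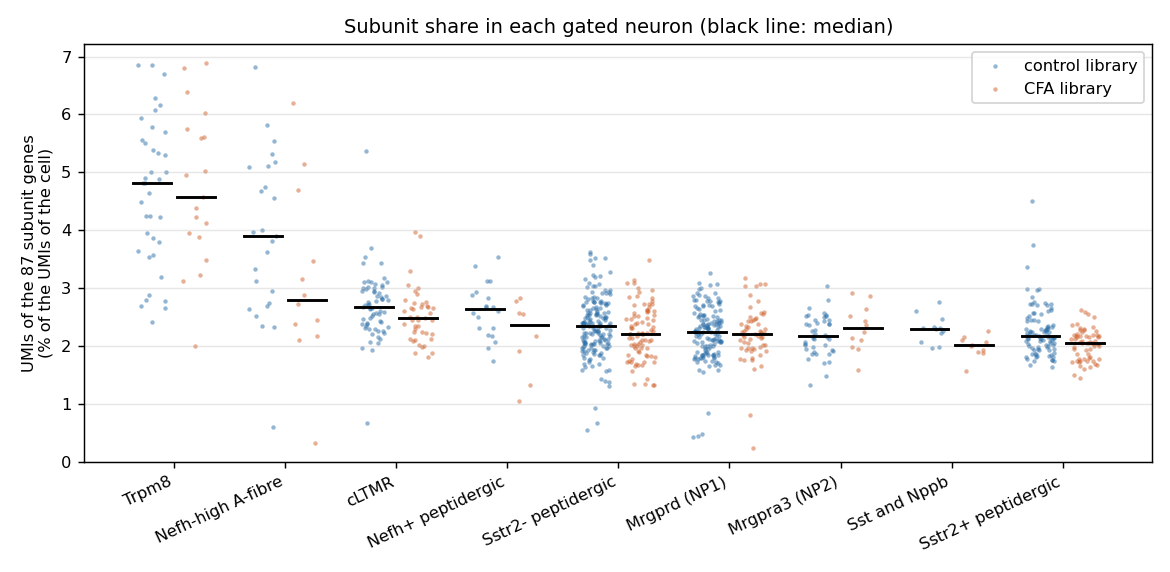
UMIs of the 87 genes as a percentage of the UMIs of each neuron (y axis, from 0) in 9 gated neuron classes, control cells in blue and CFA cells in orange, with black lines at the medians. Trpm8 neurons have medians of 4.81% and 4.58%, Nefh-high neurons 3.90% and 2.80%, and their cells are spread more widely than those of the other classes.

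Other lists of energy genes were counted in Trpm8 neurons against the same 18.7% of all genes higher and 21.1% lower. Of 13 tricarboxylic acid cycle genes, 12 were higher (median log2 difference 1.15), and so were 14 of 17 glycolysis genes (0.58) and 9 of 10 mitochondrially encoded subunits tested (0.81). Among 46 assembly factors of the complexes, 29 were higher and 2 lower (0.56). Of 11 biogenesis factors, 5 were higher and 1 was lower, and of 9 interferon-response genes tested 1 was higher and 6 were lower. As for the identity of the class, the marker Foxp2, not used by the gate, stood at 133 CPM in both libraries against 3.36 and 0.63 CPM in Sstr2-negative peptidergic neurons, whereas Tcf7l2 had 0 and 1 UMIs. The class also carried Nefh (1495 and 1589 CPM) and Pvalb (214 and 192 CPM). In Nefh-high neurons Nefh stood at 1157 and 1741 CPM and Pvalb at 20.2 and 5.03 CPM.

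In Nefh-high A-fibre neurons, 57 of 80 members were higher and 0 lower (70 at an unadjusted p under 0.05, and 30 higher with DESeq2), with 8.61% of all genes called higher and 9.72% lower. The median log2 difference was 0.59 for the members and -0.04 for all genes. Called higher were 22 of 37 members of complex I, 3 of 4 of complex II, 8 of 8 of complex III, 9 of 14 of complex IV and 15 of 17 of complex V. Cox5a had 911 and 714 CPM against 376 and 331 CPM in the other neurons (log2 difference 1.14, SE 0.16, adjusted p 1.74e-10). Members that varied between the libraries were also called, such as Ndufb5, with log2 ratios of class to other neurons of 1.01 in control and 0.31 in CFA (adjusted p 0.00232). Ndufa12, a peripheral complex I subunit, had 153 and 121 CPM against 63.5 and 63.8 CPM (1.06, SE 0.20). Cox7a1 had the largest log2 value (1.79, SE 0.72) but an adjusted p of 0.0671, on 10 and 2 UMIs. The lowest were Cox7a2l, a factor that joins complexes III and IV (0.10, SE 0.17, adjusted p 0.797), Ndufv1 (0.06, adjusted p 0.890) and Atp5g2 (-0.34, adjusted p 0.399), for which no difference was detectable. The class is small, with 25 and 12 cells and per-cell shares from 0.60% to 6.83% (control) and 0.33% to 6.19% (CFA). A Trpm8 UMI was present in 4 of the 25 and 4 of the 12 cells. Without those cells, an alternative chosen after seeing the data, the summed level was 40494 and 29369 CPM and 16 members were called higher, with 0 lower. The share of all genes called is not given for that fit or for DESeq2, so these counts lack a background. Trpm8 and Nefh-high neurons were not tested against each other.

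The other neuron classes were set against a reference that holds the Trpm8 and Nefh-high cells. Against it, 49 of 81 members were lower and 1 higher in Sstr2-positive peptidergic C neurons (17% of all genes lower, 15.9% higher). In Mrgprd neurons (NP1) 32 of 82 were lower and 5 higher (26% and 23.7% of all genes), in Mrgpra3 neurons (NP2) 27 of 81 and 4 (19.3% and 16.2%), in Sst and Nppb neurons 28 of 80 and 2 (14% and 8.34%), and in Sstr2-negative peptidergic neurons 24 of 81 and 0 (15.4% and 13.9%). When the Trpm8 and Nefh-high cells were taken out of the reference, also chosen after seeing the data, the members called lower came down to 19, 8, 9, 10 and 3 in these classes. With DESeq2 and the full reference they were 18, 9, 8, 7 and 2, and without the library term 3, 5, 6, 6 and 1. Without TMM scaling they were 57 in Mrgprd and 43 in Mrgpra3 neurons. The number of members called lower in these 5 classes thus changed with the reference, with the method and with the library term, and in Mrgprd and Mrgpra3 neurons with the scaling. Shares of all genes called in these alternative fits are not given. Whether calls over all genes changed in the same way is therefore not shown. In Sstr2-positive neurons the lowest members were Atp5g1 (-0.59, SE 0.07, adjusted p 4.16e-06), Cox5a (-0.51, SE 0.07) and Cox7a2l (-0.45, SE 0.07), and the highest was Cox4i2 (1.42, SE 0.55, adjusted p 0.0618).

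In cLTMR, the C-fibre neurons of gentle touch, 23 of 80 members were higher and 6 lower (19.7% and 23% of all genes), with a median log2 difference of 0.07. The number higher was 12 with DESeq2, 9 without the low-count filter, 13 with doubled marker minimums and 6 without the library term. No share of all genes is given for those fits. Against neurons without the Trpm8 and Nefh-high classes, 48 were higher and 1 lower (21.4% and 24.3% of all genes), with a median of 0.20. Atp5j (coupling factor 6 of complex V) had 376 and 391 CPM against 262 and 294 CPM (log2 difference 0.48, SE 0.06, adjusted p 4.88e-07), and Ndufs6 (0.46, SE 0.07) and Cox5a (0.40, SE 0.05) were also higher. Ndufs6b had the largest value but did not pass (0.52, SE 0.31, adjusted p 0.1997). At the other end were Cox7a1 (-0.81, SE 0.56, adjusted p 0.270), Ndufa3 (-0.26, SE 0.07, adjusted p 0.00270) and Ndufc2 (-0.25, SE 0.06). In Nefh-positive peptidergic neurons, 1 of 80 members was higher and 0 lower (2.78% and 3.65% of all genes). Only 2 passed an unadjusted p of 0.05 there, and 0 were called higher with DESeq2.

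Each of 8 non-neuronal classes was set against all gated neurons. Members were lower in most of them: 76 of 82 in macrophages, 75 of 81 in non-myelinating Schwann cells, 74 of 80 in myelinating Schwann cells, 73 of 80 in endothelial cells, 70 of 83 in fibroblasts and 66 of 80 in oligodendrocyte-like cells. The share of all genes called lower in these 6 contrasts was 29.6%, 27.4%, 38.9%, 31.1%, 34.8% and 29.5%. Called higher were 1, 1, 0, 0, 5 and 0 members, against 21%, 17.9%, 29.8%, 19.2%, 25.7% and 18.9% of all genes. With DESeq2 myelinating Schwann, endothelial and oligodendrocyte-like cells also had 0 members higher. The median log2 differences of the members were -1.59, -1.61, -1.10, -1.52, -1.13 and -0.98, and those of all genes -0.58, -0.44, -0.25, -0.54, -0.31 and -0.38. Mural cells had 32 of 82 lower (11.2% of all genes) and 2 higher (7.38%). By DESeq2 15 were lower and without TMM scaling 21, with no share of all genes given for either. RNA of the 8 neuronal markers in the non-neuronal classes stood at 1.16% to 10.01% of its level in neurons and was lower in the CFA than in the control library in each class. Its part in these levels was not tested.

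Ndufa4, a subunit of complex IV once counted to complex I, was among the 3 lowest members in 4 of these contrasts, at -2.98 in macrophages (SE 0.27, edgeR adjusted p 5.7e-28), -2.81 in non-myelinating Schwann cells, -2.38 in myelinating Schwann cells and -2.24 in fibroblasts. In neurons it had 983 and 1022 CPM. In oligodendrocyte-like cells Cox7a1 had 0 UMIs, and Atp5mpl (-2.12) and Cox7b (-2.05), small subunits of complexes V and IV, were the next lowest. In endothelial cells Ndufb4c had 0 UMIs, and Ndufs1, the largest subunit of complex I, was at 26.8 and 8.46 CPM against 158 and 141 CPM in neurons (-3.08, SE 0.33, adjusted p 2.49e-19).

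By the median log2 difference, satellite glial cells were the nearest of the 8 classes to neurons in the nuclear subunits and the farthest in the mitochondrially encoded ones. Of 82 members, 46 were lower and 8 higher (37.4% and 27.8% of all genes), with a median log2 difference of -0.35 and of -0.24 for all genes. In contrast, 10 of 10 mitochondrially encoded subunits tested were higher, with a median of 2.01. The lowest members were Ndufa10 (-1.39, SE 0.13), with 92.8 and 118 CPM against 278 and 311 CPM in neurons, Sdhb (-1.38, SE 0.13) and Cox5a (-1.22, SE 0.12). Cox4i1, the common form of subunit IV, stood at 673 and 604 CPM against 713 and 714 CPM (-0.04, SE 0.12, adjusted p 0.794). Highest were 3 rare isoforms of complex IV, Cox6b2, Cox7a1 and Cox4i2, and then Sdhc (0.81, SE 0.12) and Ndufa13 (0.73, SE 0.11). The glycolysis list was lower in 14 of 17 genes (median -1.21).

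Among the second isoforms, Ndufa4l2 and Cox4i2 set mural cells apart sharply, and the others differed less or were rare. Ndufa4l2, a paralog of Ndufa4 known as a hypoxia-responsive gene, made up 73.5% of the UMIs of the pair in control mural cells (50 of 68 UMIs, exact 95% binomial interval 61.4% to 83.5%) and 84.6% in CFA mural cells (22 of 26, 65.1% to 95.6%). In all neurons it made up 0.0239% and 0.0176%. Its level was 550 and 847 CPM in mural cells against 0.24 and 0.18 CPM in neurons, and it was present in 28 of 61 and 13 of 20 mural cells. Ndufa4 itself was lower there, with 198 and 154 CPM against 983 and 1022 CPM (log2 difference -2.73, SE 0.40, adjusted p 2.65e-10). Ndufa4l2 overlaps Shmt2 on the opposite strand, and whether the counting used strand is not given in the sources used here.

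Cox4i2 was also high in mural cells. It made up 33.9% of Cox4i1 plus Cox4i2 in control mural cells (21 of 62 UMIs, 22.3% to 47.0%) and 40.9% in CFA mural cells (9 of 22, 20.7% to 63.6%), and 0.132% and 0.134% in neurons. Against neurons, Cox4i2 (log2 difference 7.80, SE 0.77, adjusted p 6.66e-22) and Ndufa4l2 (11.14, SE 0.70, adjusted p 1.34e-53) were the 2 members higher in mural cells. In fibroblasts Ndufa4l2 reached 3.26% and 1.64% of its pair on 6 and 2 UMIs.

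Cox7a1 and Cox6b2 were higher in satellite glial cells and in fibroblasts than in neurons. Cox7a1 made up 7.45% of Cox7a1 plus Cox7a2 in control satellite glial cells (43 of 577 UMIs, 5.45% to 9.91%) and 6.99% in CFA (13 of 186, 3.77% to 11.7%), against 0.473% and 0.584% in neurons. In CPM it was 20.0 and 18.5 against 1.99 and 2.58 (log2 difference 3.26, SE 0.41, adjusted p 4.62e-15). In fibroblasts its share was 2.60% and 6.19%, and its level 3.96 and 12.01 CPM (log2 difference 1.67, SE 0.70, adjusted p 0.0288), on 4 and 6 UMIs. Cox6b2, known as the testis form of subunit VIb, had 17.2 and 42.6 CPM in satellite glial cells and 14.8 and 54.1 CPM in fibroblasts, against 0.65 and 0.60 CPM in neurons (log2 difference 5.40, SE 0.43, and 5.48, SE 0.56). It was also higher in macrophages (3.88) and non-myelinating Schwann cells (4.50), on 3 to 5 UMIs in each library. Mrgpra3 neurons were the one neuron class where it was called, at 2.26 and 7.42 CPM against 0.49 and 0.25 CPM (3.08, SE 0.64, adjusted p 8.23e-06), on 8 and 6 UMIs, 5 of the latter in 1 cell. Control endothelial cells had 0 Cox6b2 UMIs against 84 of Cox6b1, for which the exact upper limit of the share is 4.30%.

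Cox6b2 also differed between the libraries. Its share of Cox6b1 plus Cox6b2 in fibroblasts was 4.95% in control (15 of 303 UMIs, 2.80% to 8.03%) and 16.8% in CFA (27 of 161, 11.4% to 23.5%), and in satellite glial cells 3.15% (2.23% to 4.32%) and 8.26% (5.65% to 11.6%). The log2 ratio of its CPM, CFA over control, was 1.86 in fibroblasts (counting interval 0.90 to 2.88) and 1.31 in satellite glial cells (0.57 to 2.05). It was found in 14 of 543 and 25 of 332 fibroblasts, and in 37 of 960 and 28 of 329 satellite glial cells. In neurons it stood at 0.65 and 0.60 CPM. The UMIs lie under the minimum of 100 used for the ratios below, and with 1 library a group no test was possible.

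Cox6a2, the heart and muscle form of subunit VIa, was nearly absent. Of its 11 control and 3 CFA UMIs in neurons, 7 and 3 lay in Nefh-high cells, in 2 of 25 and 1 of 12 cells, and it overlaps Itgad on the other strand. The control Trpm8 neurons had 0 Cox6a2 UMIs against 4078 of Cox6a1, for which the exact upper limit of the share is 0.0904%. Cox7b2 had 24 and 8 UMIs and Cox6b2 25 and 10 in all neurons. Within the c-subunit genes, Atp5g1 made up 23.6% and 24.9% of Atp5g1 plus Atp5g3 in Trpm8 neurons and 20.1% and 21.0% in all neurons. Its share was close to that of Trpm8 neurons in cLTMR (23.1% and 23.9%) and in oligodendrocyte-like cells (24.6% and 24.5%). The Atp5g2 share of Atp5g2 plus Atp5g3 was 2.77% and 3.44% in Trpm8 neurons and 2.42% and 3.04% in Nefh-high neurons. It was 4.58% and 5.59% in all neurons and 8.26% and 11.9% in satellite glial cells.

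The second question was whether the subunits differed between the CFA and the control library. With 1 library a group there is no test, and ratios carry counting intervals that do not include variation between mice or preparations. A member was counted as past the fold at a log2 ratio of 0.2 in either direction, among genes with at least 100 UMIs over both libraries in the class. In all neurons the summed level was slightly lower in CFA, with a log2 ratio of -0.06 (-0.07 to -0.06) and a median of -0.06 over 80 members against -0.0040 over all 12912 genes. Past the fold were 10 members lower and 2 higher, where 20.4% of all genes were lower and 20.6% higher. The shares of all genes, here and by class, are not matched for expression. Counting error alone carries a gene near 100 UMIs past the fold more easily than a gene with many UMIs. A smaller share of members past the fold therefore does not show that they were more stable than other genes. By complex the log2 ratios were -0.04 for complex I, -0.03 for complex II, -0.07 for complex III, -0.07 for complex IV and -0.09 for complex V.

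The lowest ratios in neurons were those of Ndufb4c (13.4 and 8.59 CPM, log2 ratio -0.64), Uqcr10 (198.5 and 150.5 CPM, -0.40, counting interval -0.46 to -0.33) and Atp5c1, the γ subunit of complex V (284 and 219.5 CPM, -0.37). The highest were those of Cox7a1 (1.99 and 2.58 CPM, 0.38, -0.20 to 0.94), Atp5e, the ε subunit of complex V (274 and 322 CPM, 0.23, 0.19 to 0.28), and Sdhc, an anchor of complex II (119 and 134 CPM, 0.18). Cox5a, Atp5g3 and Atp5d were at -0.21, -0.20 and -0.19, and Cox4i1 at 0.00. Subunits of one complex therefore stood on both sides of 0.

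**Figure D4:**
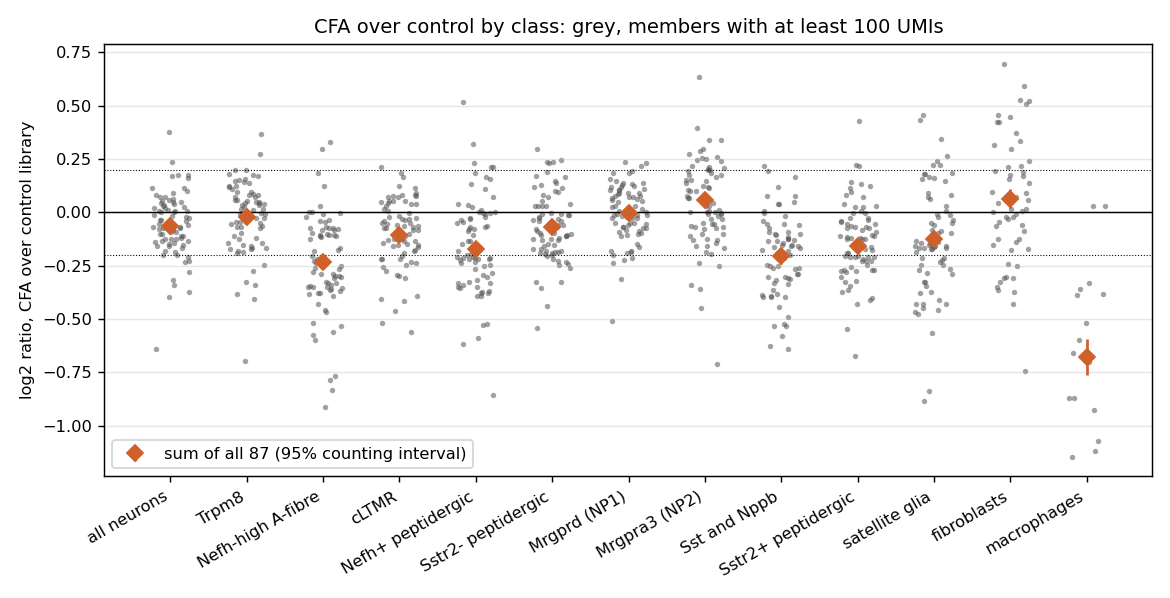
Log2 ratio of CFA over control CPM (y axis) for each member with at least 100 UMIs (grey points) and for the sum of the 87 genes (orange diamonds, 95% counting interval) in 13 groups of cells, with dotted lines at 0.2 in both directions. The 9 neuron classes lie between -0.23 and 0.06 for the sum, and macrophages lie at -0.68. Erythroid cells and lymphocytes, whose sums were also lower in CFA, are not shown.

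By neuron class, the summed ratio was -0.23 in Nefh-high neurons (-0.26 to -0.20), -0.20 in Sst and Nppb neurons, -0.17 in Nefh-positive peptidergic neurons, -0.16 in Sstr2-positive and -0.07 in Sstr2-negative peptidergic neurons and -0.11 in cLTMR. It was -0.02 in Trpm8 neurons, -0.0028 in Mrgprd neurons and 0.06 in Mrgpra3 neurons. In Nefh-high neurons 43 of 75 members were lower past the fold and 2 higher (34.5% and 26.5% of all genes). In Trpm8 neurons these counts were 7 and 3 of 77 (29.4% and 19.5%), in Nefh-positive peptidergic neurons 37 and 5 of 75 (28.3% and 27.4%), in Sst and Nppb neurons 32 and 1 of 69 (26.6% and 26.6%) and in Sstr2-positive neurons 29 and 3 of 77 (23% and 25.9%). In Mrgprd neurons they were 5 and 3 of 78 (23.1% and 18.6%). In Mrgpra3 neurons, with only 12 CFA cells, 6 were lower and 16 higher of 76 (median 0.03 for the members and -0.02 for all genes). In cLTMR the counts were 18 and 1 of 77 (medians -0.08 and -0.01). In Sstr2-negative peptidergic neurons they were 13 and 5 of 78 (medians -0.07 and -0.01). The shares of all genes past the fold are not given for Mrgpra3, cLTMR and Sstr2-negative neurons. Their counts therefore do not set the members apart from other genes.

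In Nefh-high neurons the lowest members were Ndufb4 (256 and 136 CPM, log2 ratio -0.91, -1.36 to -0.49), Uqcr10 (430.3 and 241.5 CPM, -0.83) and Ndufb5 (351 and 204 CPM, -0.78). The highest were Atp5e (423 and 531 CPM, 0.33, 0.09 to 0.56), Ndufa11 (135 and 166 CPM, 0.30) and Ndufa5 (342.5 and 389.9 CPM, 0.19). The study's Nefh-positive neurons, in which it reports Trpm8, are not the same set of cells as this class. The direction that the study found for the genes it named is not compared here. In the Nefh-high class these genes were lower in CFA: Cox5a (911 and 714 CPM), Atp5g3 (1772 and 1366 CPM) and Atp5d (520 and 420 CPM). Only 12 CFA cells stand behind these values, and the mitochondrial share of their UMIs was 4.71% against 2.96% in control. With cells of at most 10% mitochondrial UMIs the summed ratio was -0.14, with doubled marker minimums -0.10, and without cells with a Trpm8 UMI -0.46. In Trpm8 neurons, Cox5a (985 and 778 CPM), Atp5d (626 and 500 CPM) and Atp5g3 (2310 and 1911 CPM) had log2 ratios of -0.34, -0.32 and -0.27, while Atp5e (466 and 601.9 CPM) had 0.37 and the sum was level.

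Macrophages had the lowest ratio of any class, but erythroid cells and lymphocytes were also lower in CFA. Erythroid cells had a summed log2 ratio of -0.55 (-0.78 to -0.31) from 31 and 70 cells. Lymphocytes had -0.43 (-0.59 to -0.27) from 83 and 24 cells. The intervals of macrophages and erythroid cells overlap. Cell by cell the drop was smaller than in the sums. The median share of the members in a cell was 0.742% in control and 0.589% in CFA macrophages. It was 0.479% and 0.447% in erythroid cells and 1.24% and 1.14% in lymphocytes. In erythroid cells the median log2 ratio over the 98 genes counted was 0.53. In macrophages the summed level was 9809 CPM in control (9500 to 10124) and 6135 CPM in CFA (5844 to 6437). That is a log2 ratio of -0.68 (-0.76 to -0.59). Of 16 members with enough UMIs, 14 were lower past the fold and 0 higher, against 30.8% and 34.6% of all 1194 genes counted. Cox6c had 318 and 144 CPM (log2 ratio -1.15, -1.70 to -0.62), Cox6b1 328 and 151 CPM (-1.12) and Atp5g3 341 and 162 CPM (-1.07). Uqcrh (231 and 236 CPM, 0.03) and Cox7a2l (177 and 181 CPM, 0.03) were level. The 3 macrophage gate genes were higher in CFA, C1qa at 1369 and 1945 CPM, C1qb at 2771 and 3298 CPM and Csf1r at 2220 and 3220 CPM. Neuronal marker RNA in macrophages stood at 4.49% and 2.09% of its level in neurons, and at those shares neurons would bring 1124 and 500 CPM of the members. The gate itself limits this share, since it keeps cells with fewer than 20 neuronal marker UMIs, and its part in the ratio was not tested. In fibroblasts the sum had a ratio of 0.06 (0.02 to 0.11), with 16 of 59 members higher and 11 lower past the fold (32.1% and 27.3% of all genes). In satellite glial cells it was -0.12 (-0.16 to -0.09), with 26 of 76 lower and 7 higher (26.2% and 29.5%).

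Nuclear and mitochondrially encoded subunits moved apart in all neurons, but not in every class. In Mrgpra3 neurons both sums were higher in CFA (log2 ratios 0.06 and 0.44), as in fibroblasts (0.06 and 0.36). In erythroid cells both were below 0 (-0.55 and -0.10), but the counting interval of the mitochondrially encoded sum (-0.24 to 0.04) included 0. Both were also below 0 in Sst and Nppb neurons (-0.20 and -0.02) and in non-myelinating Schwann cells (-0.01 and -0.04). There too the interval of the mitochondrially encoded sum included 0 (-0.06 to 0.02 and -0.09 to 0.01). In all neurons the 13 mitochondrially encoded subunits summed to 19947 CPM in control and 23696 CPM in CFA, a log2 ratio of 0.25, while the nuclear sum had -0.06. The ratio of mitochondrially encoded to nuclear UMIs was 0.80 and 0.99 in neurons, 0.62 and 0.90 in Trpm8 neurons, 0.63 and 1.25 in Nefh-high neurons and 4.27 and 5.39 in satellite glial cells. It was higher in CFA in each class except non-myelinating Schwann cells (3.21 and 3.14). The mitochondrial genes did not move as a block either, since mt-Co1 went from 1609 to 3257 CPM in neurons, mt-Nd1 from 5117 to 5203 CPM and mt-Nd6 from 86.0 to 39.6 CPM. mt-Co2, mt-Co3, mt-Atp6 and mt-Nd4l were each below 2 CPM in neurons, so the sum rests on the other 9 genes. When totals were taken over nuclear genes alone, the summed ratio of the members stayed at -0.06 in neurons and was -0.00073 in Trpm8 neurons and -0.20 in Nefh-high neurons.

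**Figure D5:**
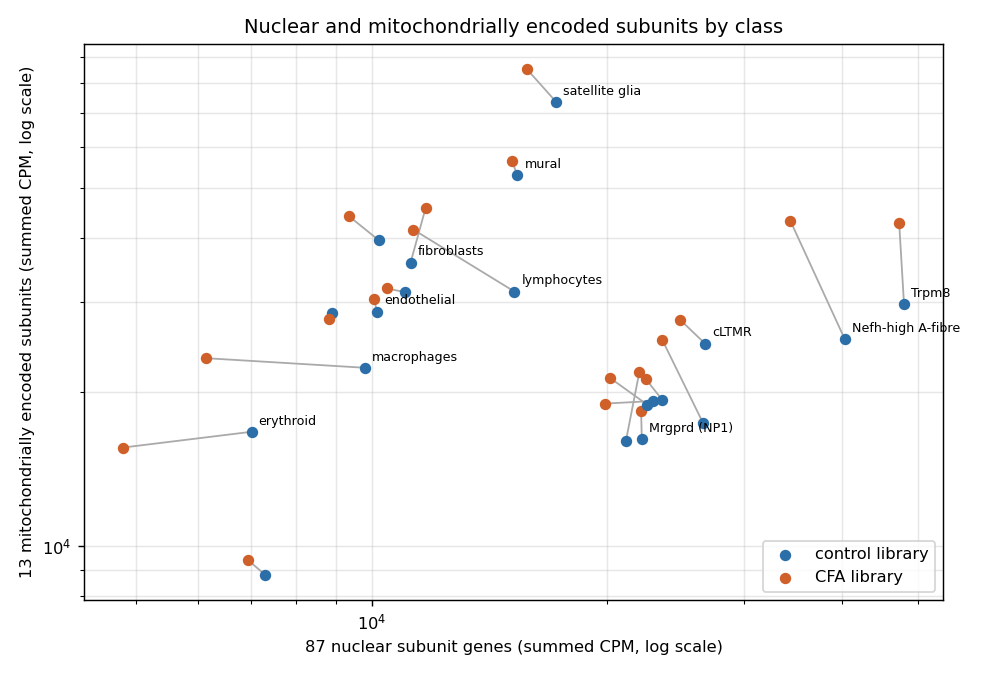
Summed CPM of the 87 nuclear genes (x axis, log scale) and of the 13 mitochondrially encoded subunits (y axis, log scale) in 20 classes, with a grey line joining the control (blue) and CFA (orange) library of a class. Satellite glial cells have the highest mitochondrially encoded level (73607 and 85263 CPM), and Trpm8 neurons the highest nuclear level.

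The other lists gave the following in all neurons. Of 46 assembly factors counted, 6 were higher and 8 lower past the fold (median log2 ratio -0.03), of 17 glycolysis genes 2 and 2 (-0.01), of 13 tricarboxylic acid cycle genes 1 and 2 (-0.07) and of 11 biogenesis factors 5 and 1 (0.20). All 10 interferon-response genes were lower in CFA past the fold (median -1.47). The drop was not limited to neurons. Lower were 8 of 8 counted in satellite glial cells (median -1.64), 8 of 9 in myelinating Schwann cells (-3.01) and 8 of 8 in non-myelinating Schwann cells (-2.53). In endothelial cells 5 of 8 were lower and 1 higher, and in Trpm8 neurons 1 of 2 was higher and 0 lower. The cause of this difference between the libraries was not tested.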

How the data were processed

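The authors deposited raw UMI counts per gene and cell for 2 BD Rhapsody libraries, 1 per condition. The submitters' processing notes name fastp and GRCm38, and the counting settings are not given in the sources used here. Cells with at least 150 genes and at most 25% mitochondrial UMIs were kept. Neurons had at least 100 UMIs over 8 markers and other cells under 20, and classes were gated by raw marker UMIs. Cells passing 2 gates were left out of the classes, and no doublet caller was run. Neurons in no class stayed in the sums of all neurons and of the other neurons. The members, lists and gates were chosen with earlier results of these data known.

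UMIs were summed per class and library. Class contrasts (17) used edgeR 4.0.16 in R 4.3.3 with quasi-likelihood tests, TMM, a low-count filter and a library term, adjusted by Benjamini-Hochberg over all genes, with 2 libraries per side. As the 2 libraries are the 2 conditions, p-values measure only the spread between these samples, shared across genes by the fit. The SE of a log2 difference is its absolute value divided by the square root of the F value of that test. CFA against control was not tested. Ratios carry exact 95% counting intervals. DESeq2 1.42.0, no TMM, no filter, stricter cells, doubled marker minimums, equal weights and cells thinned to 5000 or 500 UMIs were alternatives. Python 3.11.15 and scipy 1.17.1 were used, and scripts were tested on simulated data.

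Named were the 3 genes the study picked, the isoform pairs, the 3 members with the most UMIs in each complex, and the 3 highest and lowest members of the contrasts described. Genes named beyond these were chosen after their values were seen. Lists held assembly factors, mitochondrially encoded subunits, glycolysis, tricarboxylic acid cycle, biogenesis and interferon genes. Positions came from GENCODE M21 and promoter sequence from RefSeq GRCm38.p6.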

Additional observations from a re-analysis of the deposited data

Results flagged for a closer look

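Of 13 symbols with -ps that the choice of members left out, 2 had a counting interval above 0 for CFA over control in neurons. The share of all genes with such an interval is not given here, so the count does not set these copies apart from other genes. Atp5pb-ps had 334 UMIs (8.73 CPM) in control and 290 UMIs (17.4 CPM) in CFA neurons. Its log2 ratio was 1.00, with a counting interval of 0.76 to 1.23. Uqcrh-ps1 had 309 UMIs (8.08 CPM) and 176 UMIs (10.6 CPM), a log2 ratio of 0.39 (0.11 to 0.66). Cox7c-ps1 went the other way, with 165 and 49 UMIs and a log2 ratio of -0.55 (-1.04 to -0.08). Reads of such copies and of their parent genes may not be told apart, and with 1 library a group there is no replicate check.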

How the results depend on the processing

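The 79 members called higher in Trpm8 neurons ranged from 75 to 79 over the alternatives. The medians within the control and the CFA library alone were 1.04 and 1.07 there, and 0.74 and 0.53 in Nefh-high neurons. The fit without the library term (no replicate block) called fewer members: lower in Mrgprd 5, Mrgpra3 6, Sst and Nppb 6, Sstr2-positive 3 and Sstr2-negative neurons 1, and higher in cLTMR 6, Nefh-high 33 and Nefh-positive peptidergic neurons 0. With DESeq2 these counts were 9, 8, 7, 18, 2, 12, 30 and 0, and 15 lower in mural cells. With the reference lacking Trpm8 and Nefh-high neurons they were 8, 9, 10, 19, 3 lower, 48 higher in cLTMR and 2 higher in Nefh-positive peptidergic neurons. Without TMM, 57 were lower in Mrgprd, 43 in Mrgpra3 neurons and 21 in mural cells. Without the filter, 43 were lower in Mrgpra3 and 37 in Sstr2-negative neurons, 9 higher in cLTMR and 0 in Nefh-positive peptidergic neurons (2 at an unadjusted p under 0.05 in the fit of the report). Doubled marker minimums gave 13 in cLTMR and 31 lower in Sstr2-positive neurons. Without cells with a Trpm8 UMI, 16 were higher in Nefh-high neurons. This gate and the changed reference were chosen after seeing the data. Except for the changed reference in cLTMR, the shares of all genes called in these alternative fits are not given. A change in a count may therefore be a change in calls over all genes.

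Summed levels (CPM, control then CFA) with totals without mitochondrially encoded genes were 25638 and 24589 in neurons, 49689 and 49664 in Trpm8 and 41569 and 36069 in Nefh-high neurons. Doubled minimums gave 25167 in control neurons, 50938.5 and 49731 in Trpm8 and 46537 and 43425 in Nefh-high neurons. Equal cell weights gave 24819 in control neurons, 46449 in control Trpm8 and 38963 and 31372 in Nefh-high neurons. Thinning gave 24825 and 24116 in neurons, 46374 and 47863 in Trpm8, and 38560.0 and 32250.0 in Nefh-high neurons. Stricter cells gave 25179 in control neurons, 46557 in CFA Trpm8 and 36689.7 in CFA Nefh-high neurons, and CFA Nefh-high neurons without a Trpm8 UMI had 29369.

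The log2 ratio of CFA over control was -0.076 in neurons with stricter cells, -0.052 with equal cell weights, -0.042 thinned and -0.10 with classes weighted equally. In Trpm8 neurons it was -0.045 with stricter cells and -0.00073 without mitochondrial totals, but positive with equal weights (0.028), thinned (0.046) and centred on all genes (0.021). In Nefh-high neurons it was -0.14 with stricter cells, -0.10 with doubled minimums, -0.31 with equal weights, -0.18 centred and -0.46 without Trpm8 UMIs. In macrophages it was -0.56 with doubled minimums and -0.54 with equal weights. The causes were not tested. The few cells of the Trpm8 and Nefh-high classes and the shallow non-neuronal cells limit what is detectable.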
